A study of Mus musculus with 18 samples.

Results

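The genes described here are 10 that mark scar-associated macrophages and the blood monocytes they come from: Gpnmb, Trem2, Cd9, Cd63, Spp1, Lgals3, Fabp5, Lyz2, Itgax and Ccr2. They were chosen by name, with earlier results of these data known. They were looked up by symbol among the 55536 gene identifiers counted, and all 10 were found. RNA was read from whole livers of 18 female C57BL/6 mice, 3 in each of 6 groups, gavaged for 92 days at 4-day intervals with peanut oil vehicle or with 100 µg/kg TCDD. TCDD is a dioxin that activates AHR, the aryl hydrocarbon receptor. The mice labelled WT are AhRfl/fl, with a floxed Ahr gene that no deletion has removed, and are called WT here. AhRΔHep mice (dHep here) lack AHR in hepatocytes, and AhRΔHSC mice (dHSC here) lack it in hepatic stellate cells. The labels name no Cre driver and no deleted exon, and they mention no pooling of animals. Each library is 1 mouse, and a mouse is named here by its group and its number in the labels. The series title asks whether TCDD activates liver myofibroblasts through AHR in hepatocytes.

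As background, injured liver draws monocytes from the blood through CCR2, the receptor for the chemokine CCL2. In scars, these cells mature into macrophages that carry the lipid receptor TREM2 and the tetraspanin CD9, load lysosomal proteins such as GPNMB, and secrete osteopontin, the product of Spp1. Resident macrophages of the liver, the Kupffer cells, carry other markers such as Clec4f. Most of the 10 genes are not restricted to macrophages: bile duct cells make osteopontin, and neutrophils and dendritic cells share several of the others. In RNA of whole liver, more cells of a type and more RNA per cell cannot be told apart.

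In WT livers 5 of the 10 genes passed the test with TCDD, and their promoters are shown because these are the members called there and TCDD acts through a DNA-binding receptor. The sequences are from RefSeq, build GRCm38.p6, whose table matched 9 of the 10 genes (all but Fabp5). Each runs 5′ to 3′ on the gene's strand, over the 250 bases before the RefSeq start less any bases that fall in an annotated exon. All 5 genes lie on the plus strand. Capitals mark GCGTG, the core of the AHR binding motif, or GAGGAA, a core of PU.1, the myeloid lineage factor, on either strand.
Gpnmb, chr6:49036268-49036517: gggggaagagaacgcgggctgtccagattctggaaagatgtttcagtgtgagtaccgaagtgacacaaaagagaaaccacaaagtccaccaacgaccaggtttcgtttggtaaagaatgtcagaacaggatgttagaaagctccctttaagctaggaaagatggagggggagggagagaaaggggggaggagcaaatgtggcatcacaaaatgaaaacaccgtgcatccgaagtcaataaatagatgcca
Trem2, chr17:48346151-48346400: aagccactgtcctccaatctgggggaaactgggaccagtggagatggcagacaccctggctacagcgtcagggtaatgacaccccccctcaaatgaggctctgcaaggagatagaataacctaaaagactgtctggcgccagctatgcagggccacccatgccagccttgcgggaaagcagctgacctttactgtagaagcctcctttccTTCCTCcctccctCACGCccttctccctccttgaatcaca
Spp1, chr5:104434861-104435110: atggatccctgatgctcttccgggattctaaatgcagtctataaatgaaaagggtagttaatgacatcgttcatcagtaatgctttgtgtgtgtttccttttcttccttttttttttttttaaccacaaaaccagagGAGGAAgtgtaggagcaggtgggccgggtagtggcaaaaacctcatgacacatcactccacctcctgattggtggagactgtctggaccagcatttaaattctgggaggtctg
Itgax, chr7:128129300-128129546: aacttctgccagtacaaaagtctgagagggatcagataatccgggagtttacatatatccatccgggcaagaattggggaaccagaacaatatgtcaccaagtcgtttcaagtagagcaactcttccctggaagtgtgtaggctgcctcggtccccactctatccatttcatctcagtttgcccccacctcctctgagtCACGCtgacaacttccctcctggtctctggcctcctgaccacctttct
Lgals3, chr14:47373610-47373812: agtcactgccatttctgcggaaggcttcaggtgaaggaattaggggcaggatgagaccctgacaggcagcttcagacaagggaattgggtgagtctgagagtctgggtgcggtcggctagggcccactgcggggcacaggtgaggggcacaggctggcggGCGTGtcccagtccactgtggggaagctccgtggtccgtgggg

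The AHR core lay in the Trem2, Itgax and Lgals3 windows and in 28.2% of 32851 RefSeq windows of the same 250-base length. GAGGAA lay in the Trem2, Spp1 and Cd63 windows and in 23.3% of all windows. CACGTG, the E-box bound by the MITF and TFE factors of lysosomal genes, lay in none of the members' windows and in 6.02% of all windows. The 3 motifs do not overlap each other in these windows. None of the 3 was in the Gpnmb window. The search covered all 250 bases of a window on both strands. These are matches of letters, and no binding was measured.

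Total counts ran from 12706490 to 27240877 per library. In 5 libraries (dHep vehicle mice 9 and 15, dHep TCDD mouse 16, dHSC vehicle mouse 17 and dHSC TCDD mouse 18) 2.20% to 4.25% of counts lay outside protein-coding genes, against at most 1.76% in the other 13. In dHSC TCDD mouse 18, 28.4% of counts were mitochondrially encoded. WT vehicle mouse 1 held a summed 1057 CPM (the count scaled to the size of its library) of 8 skeletal muscle markers, against at most 3.03 CPM elsewhere. WT TCDD mouse 8 lay at 36.8 on the first principal component of all libraries, between the 5 (62.1 to 126) and the other 12 (-52.4 to -11.8). Hepatocyte markers summed to 45358 to 163677 CPM in all 18 livers, as the tissue label says. Ahr, the targeted gene, had group means from 38.0 to 61.6 CPM and was called in no comparison, and a count over the whole gene checks no label where the deleted exons are not given. The counting filter kept 14835 genes. All 10 members passed it, and Gpnmb reached its minimum of 0.573 CPM in 4 of 9 vehicle libraries and in all 9 TCDD libraries. Stretches of 100 bases shared with other genes made up 9.01% of Fabp5, 5.82% of Spp1, 3.70% of Itgax (with Itgad) and 1.97% of Lyz2 (with Lyz1), and none of Gpnmb, Trem2, Cd9 or Lgals3.

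In WT livers TCDD raised Gpnmb, Trem2, Spp1, Lgals3 and Itgax, by 3.74-fold for Trem2 to 132-fold for Gpnmb (edgeR's quasi-likelihood test, Benjamini-Hochberg adjusted p under 0.05 over 14835 genes). These are 5 of 10 members, where 3.43% of all genes tested were called higher. No member was called lower, where 1.95% of all genes were. Over the 10 members the median log2 change was 1.69, against -0.02 over all genes tested. In 9 of the 10 genes, all but Lyz2, every TCDD liver lay above every vehicle liver, an arrangement that held for 13.4% of all genes. The plot of levels by mouse shows each gene in its own panel.

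**Figure D1:**
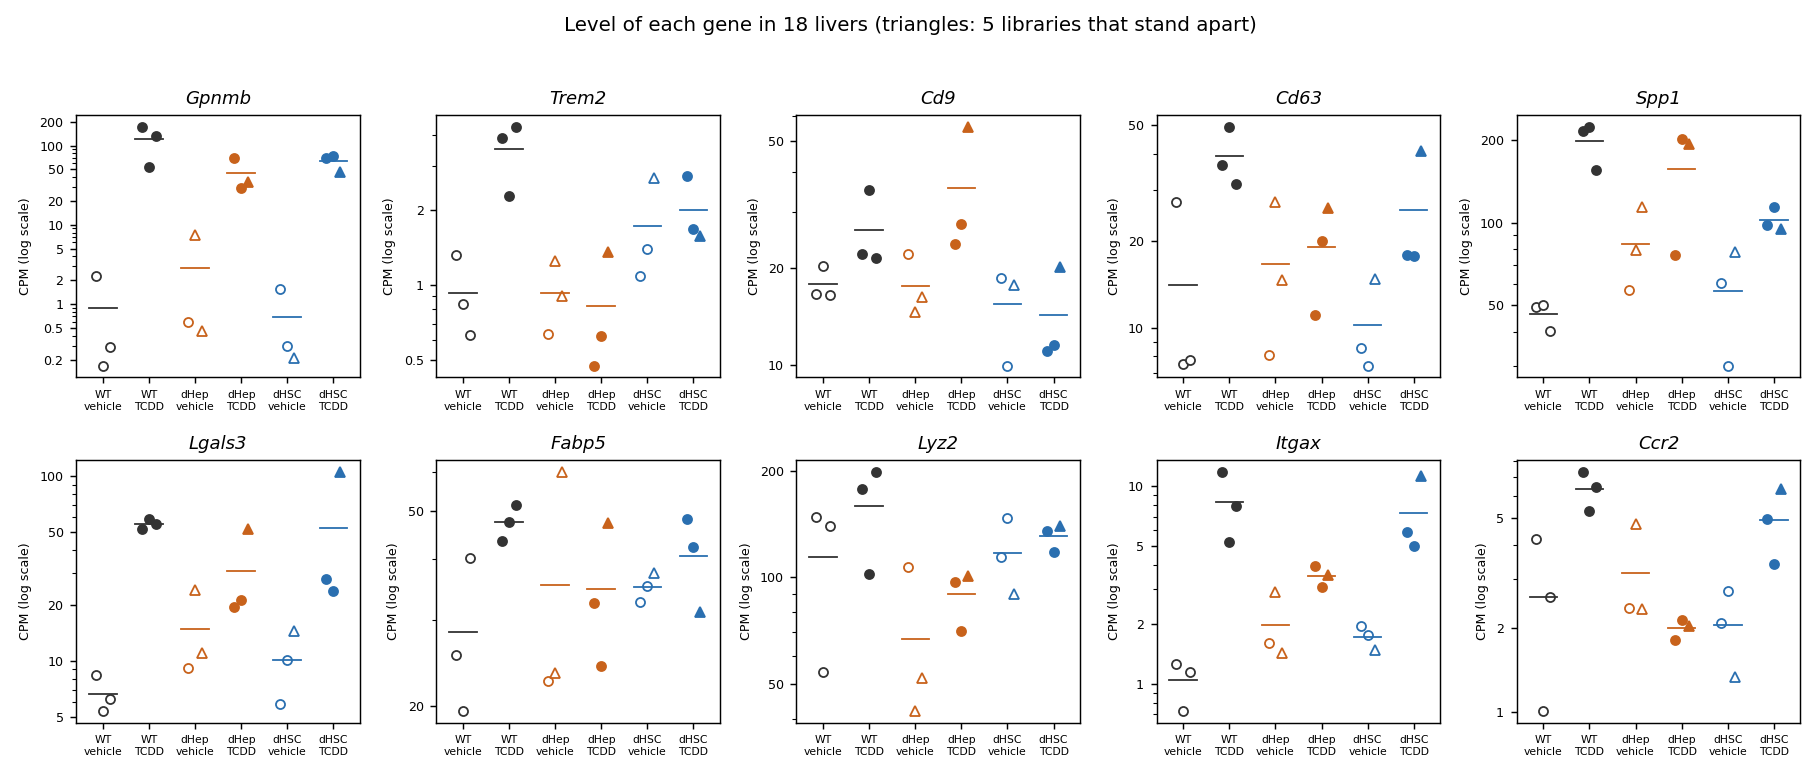
Levels of the 10 genes in CPM, the scaled count (log axis), in each of 18 livers, by genotype and treatment. Open symbols are vehicle, filled symbols TCDD, lines are group means of 3 mice, and triangles are the 5 libraries with over 2% of counts outside protein-coding genes. WT TCDD livers lie above WT vehicle livers in every panel except Lyz2.

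Gpnmb, a transmembrane glycoprotein of lysosomes in phagocytic cells (ENSMUSG00000029816, chr6:49036546-49070929), was nearly absent from vehicle livers. WT vehicle mice 1, 7 and 13 had 2.24, 0.168 and 0.287 CPM, from 39, 3 and 5 reads. WT TCDD mice 2, 8 and 14 had 173, 53.4 and 132 CPM. The groups were far apart, and mouse 1, the library with muscle RNA, was the highest of the vehicle livers. The log2 change was 7.05 ± 1.19 (SE, n = 3, adjusted p = 0.00206), and without WT vehicle mouse 1 it was 8.99 (adjusted p = 0.00220). Here and below, the SE of a log2 change comes from the fit over all 18 libraries, and n counts the mice per group.

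Trem2, the lipid-sensing receptor of macrophages (ENSMUSG00000023992, chr17:48346401-48354147), was a low transcript in every group. WT vehicle mice 1, 7 and 13 had 1.32, 0.841 and 0.631 CPM, and WT TCDD mice 2, 8 and 14 had 3.89, 2.28 and 4.30 CPM. The groups did not overlap, and the gap between mouse 8 and mouse 1 was small. The fitted log2 change was 1.90 ± 0.51 (SE, n = 3, adjusted p = 0.0396). This call was the least stable in WT: it was lost without a count filter (adjusted p = 0.0699), in a fit of the WT groups alone (0.0541), and without WT TCDD mouse 2 (1.81, adjusted p = 0.126) or 14 (1.72, 0.138) or WT vehicle mouse 7 (1.83, 0.145) or 13 (1.69, 0.158).

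Cd9 and Cd63 encode tetraspanins, CD9 of the cell surface (ENSMUSG00000030342, chr6:125460266-125494791) and CD63 of late endosomes and lysosomes (ENSMUSG00000025351, chr10:128900989-128912822). Neither was called in WT. Cd9 went from 17.9 ± 2.21 CPM (SD, n = 3) with vehicle to 26.4 ± 7.71 CPM with TCDD, a log2 change of 0.56 with a 95% interval of -0.20 to 1.32. Cd63 had 27.2, 7.51 and 7.75 CPM in WT vehicle mice 1, 7 and 13, and 36.5, 49.5 and 31.5 CPM in WT TCDD mice 2, 8 and 14. Mouse 1 alone stood near the TCDD livers. The log2 change of Cd63 was 1.47 ± 0.55 (SE, n = 3, adjusted p = 0.155), and without WT vehicle mouse 1 it was 2.35 (adjusted p = 0.0204). The counts of both genes carry a limit of sequence: 10.7% of Cd9 exon bases lie under other genes, and 20.2% of the 100-base stretches of Cd63 also occur in the pseudogene Cd63-ps.

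Spp1, the gene of osteopontin, a secreted matrix protein that binds integrins and CD44 (ENSMUSG00000029304, chr5:104435118-104441050), was called higher. WT vehicle mice 1, 7 and 13 had 49.2, 50.3 and 40.2 CPM, and WT TCDD mice 2, 8 and 14 had 217, 224 and 156 CPM. The lowest TCDD liver was thus well above the highest vehicle liver. Fitted on the log2 scale, the change was 2.09 ± 0.39 (SE, n = 3, adjusted p = 0.00475). Of its exon bases 18.8% lie under the predicted gene Gm42793.

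Lgals3, the gene of galectin-3, a lectin that macrophages secrete (ENSMUSG00000050335, chr14:47367751-47386160), had the tightest TCDD group among the called genes. WT vehicle mice 1, 7 and 13 had 8.37, 5.38 and 6.20 CPM, and WT TCDD mice 2, 8 and 14 had 51.6, 58.8 and 55.1 CPM. The 3 TCDD livers differed little from each other. The log2 change was 3.05 ± 0.59 (SE, n = 3, adjusted p = 0.00549).

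Fabp5, a carrier of fatty acids in macrophages and other cells (ENSMUSG00000027533, chr3:10012548-10016607), and Lyz2, lysozyme of myeloid cells (ENSMUSG00000069516, chr10:117277331-117282321), were not called. Fabp5 was 28.4 ± 10.6 CPM (SD, n = 3) with vehicle and 47.5 ± 3.99 CPM with TCDD, a log2 change of 0.74 with a 95% interval of -0.04 to 1.53. Lyz2 was 114 ± 52.0 CPM with vehicle and 159 ± 50.6 CPM with TCDD, a log2 change of 0.48 with an interval of -0.36 to 1.33. These intervals exclude changes as large as those of Lgals3 or Itgax. Lyz2 groups overlapped: WT TCDD mouse 8, at 102 CPM, was below WT vehicle mice 1 and 13, at 148 and 139 CPM. Lyz1, the lysozyme gene of the gut, is identical to Lyz2 at 95% of 444 coding bases, yet it reached at most 3.01 CPM in any liver and was not tested.

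Itgax, the gene of CD11c, the alpha chain of a β2 integrin (ENSMUSG00000030789, chr7:128129547-128150657), had the smallest adjusted p of the 10 in WT. WT vehicle mice 1, 7 and 13 had 1.26, 0.729 and 1.15 CPM, and WT TCDD mice 2, 8 and 14 had 11.8, 5.24 and 7.94 CPM. The groups were separated by several times the highest vehicle value. The fitted log2 change was 2.99 ± 0.43 (SE, n = 3, adjusted p = 0.00057), and it stayed between 2.65 and 3.23 as each WT library was left out.

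Ccr2, the receptor that draws monocytes out of the bone marrow (ENSMUSG00000049103, chr9:124101950-124113557), was not called in WT. WT vehicle mice 1, 7 and 13 had 4.18, 1.01 and 2.58 CPM, and WT TCDD mice 2, 8 and 14 had 7.33, 5.30 and 6.49 CPM. The groups did not overlap, but the vehicle livers were spread. Fitted on the log2 scale, the change was 1.30 ± 0.46 (SE, n = 3, adjusted p = 0.126), and without WT vehicle mouse 1 it was 1.82 (adjusted p = 0.0396).

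With AHR deleted from hepatocytes, in dHep livers, none of the 10 members was called with TCDD by edgeR's quasi-likelihood test, where 0.0674% of all genes were called in either direction. At an unadjusted p under 0.05 there were 3 (Gpnmb, Cd9 and Spp1), against 6.70% of all genes, and DESeq2 called 1, Gpnmb (adjusted p = 0.00866). The median log2 change of the members was 0.62, against -0.01 over all genes. Every dHep TCDD liver lay above every dHep vehicle liver for Gpnmb, Cd9 and Itgax (4.56% of all genes did so), and below for Ccr2 (5.03%).

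Gpnmb in dHep vehicle mice 3, 9 and 15 was 0.599, 7.55 and 0.453 CPM, and in dHep TCDD mice 4, 10 and 16 it was 70.7, 29.6 and 35.2 CPM. The groups did not overlap, and vehicle mouse 9 stood far above the other vehicle livers. The log2 change was 3.98 ± 1.02 (SE, n = 3, adjusted p = 0.343). Without dHep vehicle mouse 9 it was 6.38 (adjusted p = 0.0499, at the edge of the threshold). The size thus depended on this liver, while DESeq2 called Gpnmb with the liver included. In the same liver, cholangiocyte markers summed to 137 CPM and neutrophil markers to 25.5 CPM, the highest sums of any vehicle liver, and their part in its Gpnmb level was not tested.

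Trem2 in dHep was 0.637, 1.25 and 0.906 CPM in vehicle mice 3, 9 and 15, and 0.476, 0.628 and 1.36 CPM in TCDD mice 4, 10 and 16. The groups overlapped, and the log2 change was -0.19 with a 95% interval of -1.29 to 0.91. Itgax was 1.61, 2.91 and 1.43 CPM with vehicle and 3.94, 3.08 and 3.54 CPM with TCDD. The gap between the groups was narrow, with a fitted log2 difference of 0.82 ± 0.40 (SE, n = 3, adjusted p = 0.743). Lgals3 was 9.17, 24.3 and 11.1 CPM with vehicle and 19.6, 21.4 and 51.7 CPM with TCDD. Its groups overlapped through vehicle mouse 9, and the log2 change was 1.06 ± 0.55 (SE, n = 3, adjusted p = 0.747).

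Spp1 in dHep was 57.1, 79.9 and 114 CPM with vehicle and 76.5, 203 and 193 CPM with TCDD. TCDD mouse 4 stood among the vehicle livers, and the log2 change was 0.91 ± 0.38 (SE, n = 3, adjusted p = 0.677). Cd9 was 22.2, 14.6 and 16.3 CPM with vehicle and 23.8, 27.5 and 55.4 CPM with TCDD. Its fitted log2 difference was 1.01 ± 0.36 (SE, n = 3, adjusted p = 0.591). TCDD mouse 16, one of the libraries that stand apart, carried the highest Cd9 level of the 18. Ccr2 was 2.36, 4.76 and 2.34 CPM with vehicle and 1.82, 2.13 and 2.04 CPM with TCDD. All 3 TCDD livers were lower, by little, and the log2 change was -0.66 ± 0.46 (SE, n = 3, adjusted p = 0.827). Cd63, Fabp5 and Lyz2 had log2 changes of 0.19, -0.03 and 0.42 with overlapping groups.

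With AHR deleted from stellate cells, in dHSC livers, TCDD raised Gpnmb, Itgax and Lgals3. These are 3 of 10 members, where 1.71% of all genes were called higher. None was called lower, where 0.843% of all genes were. The median log2 change of the members was 1.06, against 0.00 over all genes. Groups were separated, TCDD above vehicle, for Gpnmb, Spp1, Itgax, Lgals3, Cd63 and Ccr2, as for 9.61% of all genes. Leaving out dHSC vehicle mouse 11 or 17 or dHSC TCDD mouse 18 left 1 called member, Gpnmb, and leaving out vehicle mouse 5 left Gpnmb and Itgax.

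Gpnmb in dHSC vehicle mice 5, 11 and 17 was 1.54, 0.295 and 0.211 CPM, and in dHSC TCDD mice 6, 12 and 18 it was 69.9, 73.4 and 46.4 CPM. The groups were again far apart. The fitted log2 change was 6.42 ± 1.17 (SE, n = 3, adjusted p = 0.00618), and without dHSC vehicle mouse 5 it was 7.92 (adjusted p = 0.0145). Itgax was 1.95, 1.77 and 1.48 CPM with vehicle and 5.83, 4.99 and 11.2 CPM with TCDD. Its fitted log2 difference was 2.08 ± 0.41 (SE, n = 3, adjusted p = 0.0112). Mouse 18 was the highest, and without it the change was 1.64 (adjusted p = 0.0524).

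Lgals3 in dHSC was 5.88, 10.1 and 14.6 CPM with vehicle and 28.0, 24.0 and 106 CPM with TCDD. Here too mouse 18 stood far above the other TCDD livers. Fitted on the log2 scale, the change was 2.37 ± 0.57 (SE, n = 3, adjusted p = 0.0368), and without mouse 18 it was 1.35 (adjusted p = 0.229). In that liver neutrophil markers summed to 163 CPM, against 14.4 and 20.6 CPM in the other dHSC TCDD livers, and their part in its Lgals3 and Itgax levels was not tested.

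Ccr2 in dHSC was 2.08, 2.73 and 1.34 CPM with vehicle and 4.94, 3.41 and 6.38 CPM with TCDD. The groups did not overlap, and the log2 change was 1.26 ± 0.46 (SE, n = 3, adjusted p = 0.228). Spp1 went from 56.3 ± 24.4 to 102 ± 10.3 CPM (SD, n = 3), with a log2 change of 0.86 ± 0.38 (SE, adjusted p = 0.361). Cd63 went from 10.3 ± 3.95 to 25.5 ± 13.2 CPM, with a log2 change of 1.31 ± 0.55 (adjusted p = 0.322). Trem2 was 1.09, 1.40 and 2.67 CPM with vehicle and 2.73, 1.68 and 1.58 CPM with TCDD. Vehicle mouse 17 was nearly as high as the highest TCDD liver, and the log2 change was 0.22 with a 95% interval of -0.84 to 1.27. Cd9, Fabp5 and Lyz2 had log2 changes of -0.11, 0.21 and 0.16 with overlapping groups.

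**Figure D2:**
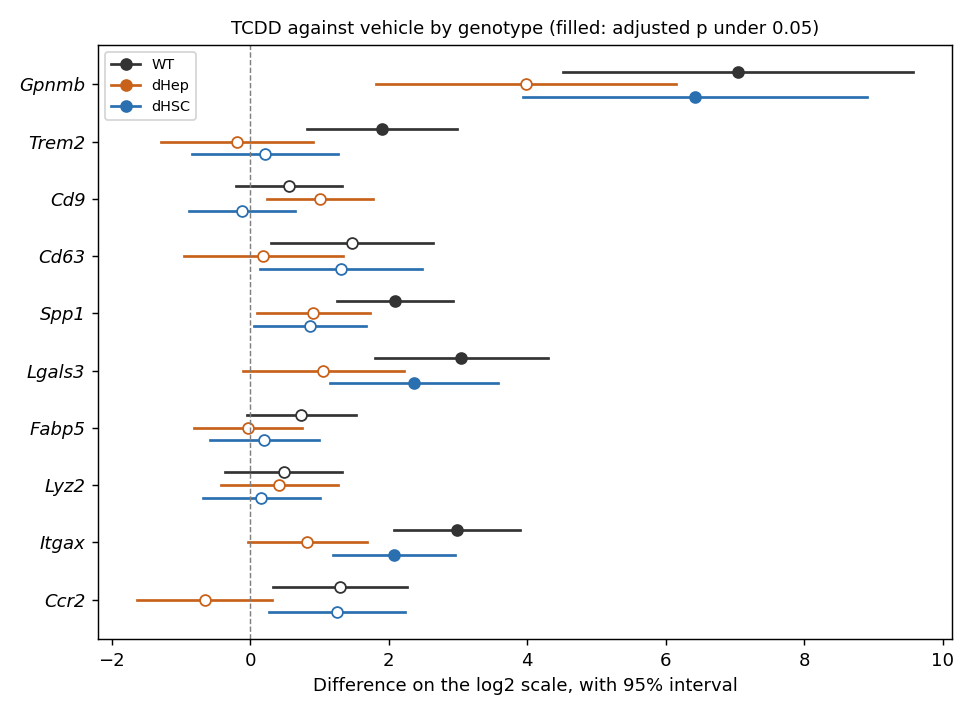
Change with TCDD against vehicle for the 10 genes in each genotype, as a log2 difference with its 95% interval from the fit (3 mice per group). Filled points passed an adjusted p of 0.05, namely 5 in WT, 3 in dHSC and 0 in dHep, and Gpnmb has the largest change in each genotype.

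Whether the response differed between genotypes was tested directly, as the TCDD change in dHep less that in WT. No member passed by edgeR's quasi-likelihood test, where 0.856% of all genes did, and DESeq2 called 1, Itgax (adjusted p = 0.0346). At an unadjusted p under 0.05 there were 6 (Gpnmb, Trem2, Spp1, Itgax, Lgals3 and Ccr2), against 8.43% of all genes. The difference was below 0 for all members but Cd9, with a median of -1.62 on the log2 scale against -0.02 over all genes. The WT arm is the one in which 5 of these genes had been called, and both comparisons share its libraries.

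Itgax had the smallest adjusted p in that test, with a difference of -2.16 ± 0.58 (SE, 95% interval -3.39 to -0.94, adjusted p = 0.129). Ccr2 differed by -1.95 ± 0.65 (SE, interval -3.33 to -0.58, adjusted p = 0.296), and it is the member whose groups were ordered in opposite ways, TCDD above vehicle in WT and below in dHep. Trem2 differed by -2.09 (interval -3.63 to -0.55, adjusted p = 0.338) and Lgals3 by -1.99 (interval -3.64 to -0.34, adjusted p = 0.450). The intervals of these genes and of Spp1, at -1.18 (interval -2.32 to -0.04), lie below 0 without adjustment only. The difference of Gpnmb, -3.07 (interval -5.97 to -0.17), was -0.67 without dHep vehicle mouse 9 and -5.00 without WT vehicle mouse 1. For Cd63, Fabp5, Cd9 and Lyz2 the intervals included 0, with differences of -1.28, -0.77, 0.44 and -0.06.

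The TCDD change in dHSC less that in WT was tested in the same way. No member passed by edgeR's test or by DESeq2, and edgeR called 0% of all genes. At an unadjusted p under 0.05 there were 2 members, against 1.57% of all genes. These were Trem2, at -1.68 (95% interval -3.19 to -0.18), and Spp1, at -1.23 (interval -2.37 to -0.09). The values of all 10 members were below 0, from -1.68 for Trem2 to -0.04 for Ccr2, while 7894 of 14835 genes tested lay above 0. The members' median was -0.65, against 0.03 over all genes. This comparison, too, uses the WT arm in which 5 of these genes had been called. For Gpnmb the interval, -3.63 to 2.37, is too wide to tell a lower response from a higher one.

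**Figure D3:**
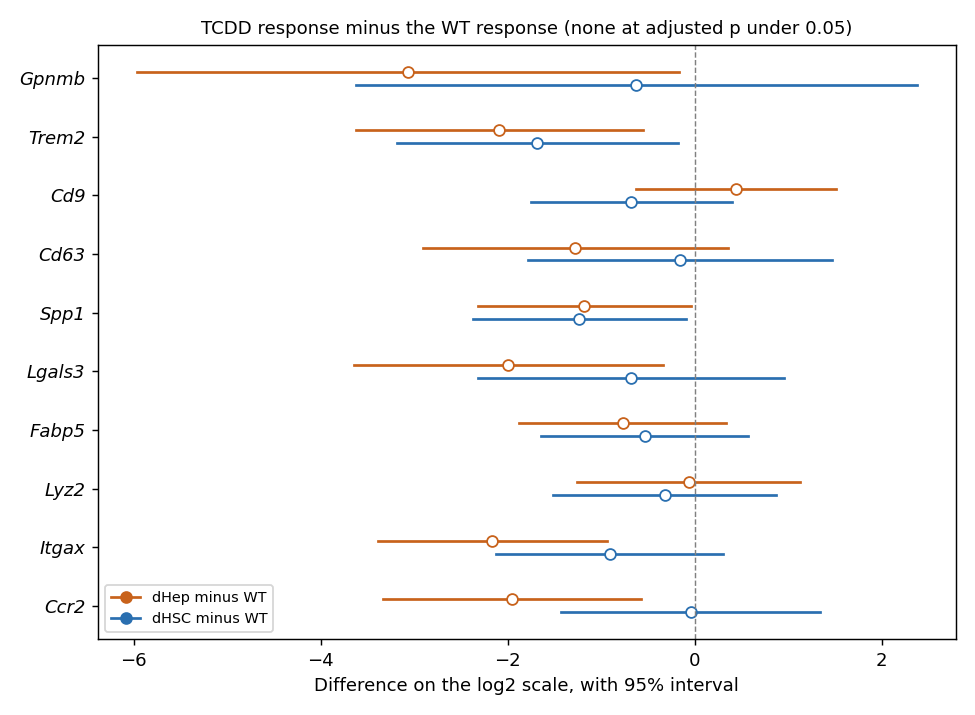
TCDD response in dHep and in dHSC less the response in WT for the 10 genes, on the log2 scale with 95% intervals. In dHep all members but Cd9 lie below 0, in dHSC all 10 do, and no point passed an adjusted p of 0.05. Both sets of differences share the WT arm, in which 5 of the genes had been called.

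With vehicle, no member differed between dHep and WT or between dHSC and WT by edgeR's test or by DESeq2, and edgeR called 0% of all genes in both. At an unadjusted p under 0.05 there were 2 members for dHep (Spp1 and Itgax, against 6.91% of all genes) and 0 for dHSC (1.48%). All dHep vehicle livers lay above all WT vehicle livers for Spp1, Itgax and Lgals3, as for 4.58% of all genes. Spp1 was 0.84 ± 0.38 higher on the log2 scale (SE of 3 mice, adjusted p = 0.623) and Itgax 0.92 ± 0.42 higher (adjusted p = 0.623). Of the 3 dHep vehicle libraries, mice 9 and 15 stand apart, and without the libraries that stand apart the values were 0.29 and 0.62, with mouse 3 as the lone dHep vehicle liver. In dHSC with vehicle only Itgax was separated from WT, above it, as 2.24% of all genes were.

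With TCDD, Trem2 was lower in dHep than in WT, by a log2 difference of -2.10 ± 0.52 (SE, n = 3, adjusted p = 0.0484). It was the only member called, where 1.12% of all genes were called lower. Trem2 in the TCDD livers ran from 0.476 to 1.36 CPM in dHep and from 2.28 to 4.30 CPM in WT. The call sits at the threshold: adjusted p was 0.0541 with RLE scaling, 0.0862 without a count filter and 0.0920 with the groups of the comparison alone. It was also lost without WT TCDD mouse 2 (-2.02, adjusted p = 0.164) or 14 (-1.92, 0.198) or dHep TCDD mouse 4 (-1.82, 0.230) or 10 (-1.95, 0.215). Every dHep TCDD liver lay below every WT TCDD liver for Trem2, Cd63, Lyz2, Itgax and Ccr2, as for 9.68% of all genes. Ccr2 was -1.67 ± 0.46 (SE, adjusted p = 0.0898), with all 3 dHep livers between 1.82 and 2.13 CPM and all WT livers at 5.30 CPM or above, and DESeq2 called it (adjusted p = 0.0185). Itgax was -1.24 ± 0.40 (SE, adjusted p = 0.171). Spp1 and Cd9 overlapped between these groups.

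Between dHSC and WT with TCDD, no member was called by edgeR's test or by DESeq2, and edgeR called 0% of all genes. At an unadjusted p under 0.05 there were 2, against 3.63% of all genes. Cd9 was 14.3 ± 5.18 CPM (SD, n = 3) in dHSC and 26.4 ± 7.71 CPM in WT, a log2 difference of -0.88 (95% interval -1.65 to -0.12). Spp1 was 102 ± 10.3 CPM in dHSC and 199 ± 37.6 CPM in WT, a difference of -0.96 (interval -1.77 to -0.15). For these genes the dHSC livers all lay below the WT livers, as 4.38% of all genes did. For Gpnmb, Lgals3 and Itgax the intervals spanned 0, at -2.82 to 0.99, -1.22 to 1.08 and -1.01 to 0.65.

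Levels can be compared between genes once divided by transcript length, here the longest protein-coding transcript in kb. With vehicle in WT, the order of mean CPM per kb was Lyz2 (86.6), Spp1 (30.9), Fabp5 (28.8), Cd9 (14.5), Cd63 (12.8), Lgals3 (4.69), Trem2 (0.855), Ccr2 (0.453), Itgax (0.259) and Gpnmb (0.242). With TCDD in WT it was Spp1 (132), Lyz2 (121), Fabp5 (48.1), Lgals3 (38.9), Cd63 (35.3), Gpnmb (32.3), Cd9 (21.5), Trem2 (3.21), Itgax (2.06) and Ccr2 (1.11). Gpnmb moved from the bottom of the order to the middle. Neighbours such as Spp1 and Lyz2 with TCDD (SD 24.9 and 38.4 CPM per kb) or Lgals3, Cd63 and Gpnmb (SD 2.52, 8.35 and 16.4) do not differ beyond their spread. Trem2, Itgax and Ccr2 were in every group the least abundant of the 10, apart from Gpnmb with vehicle.

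The partners of the members on their pathways were read from lists. TREM2 signals through the adaptor TYROBP and the kinase SYK. Of the 9 tested genes of TREM2 signalling and shedding, 3 rose with TCDD in WT, against 3.43% of all genes, and 0 fell. Tyrobp was 19.8, 10.8 and 22.5 CPM in WT vehicle mice 1, 7 and 13 and 43.0, 45.5 and 47.5 CPM in WT TCDD mice 2, 8 and 14. Its log2 change was 1.36 ± 0.34 (SE, n = 3, adjusted p = 0.0263). Plcg2, a phospholipase of the same pathway, changed by 1.82, and Inpp5d, the phosphatase SHIP1 that restrains it, by 1.45. With 1 library left out, the calls of Tyrobp and Plcg2 were each lost in 4 of 6 cases. That of Inpp5d was lost in 6 of 6. Syk itself changed by 1.67 (adjusted p = 0.0794). In dHep and dHSC no gene of this list was called by edgeR's test. At an unadjusted p under 0.05 there were 1 in dHep and 3 in dHSC, against 6.7% and 12.2% of all genes. DESeq2 called 0 and 2, the latter Plcg2 and Pik3ap1.

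Of the chemokines that bind CCR2, Ccl7 was called higher in WT with TCDD, with 0.0573, 0.112 and 0.172 CPM in WT vehicle mice and 0.504, 2.05 and 1.78 CPM in WT TCDD mice. These are few reads, and the log2 change was 3.58 ± 0.86 (SE, n = 3, adjusted p = 0.0214). With 1 library left out, the Ccl7 call was lost in 5 of 6 cases. Ccl8 had a log2 change of -0.18 with an interval from -2.96 to 2.60, and Ccl12 was too low to test. Ccl2, the main ligand, had no count in any of the 18 libraries. It is 1 of 8 listed genes without a count, and 6 of these, Ccl2 included, have all their exon bases inside other annotated genes. Whether the overlap cost Ccl2 its reads was not tested, and its 0 is not taken as a measurement of its level. Itgam, the gene of CD11b, is another of the 8, with 99.1% of its exon bases inside other genes.

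Osteopontin binds CD44 and several integrins. None of the 7 receptor genes tested was called in WT with TCDD by edgeR's test or by DESeq2. Unadjusted p was under 0.05 for 2 of the 7, against 16.7% of all genes. Cd44 changed by 1.44 ± 0.51 (SE, n = 3, adjusted p = 0.130), and Itgav, the αv integrin chain, by 0.03 with an interval of -0.42 to 0.48. Itgb2, the β2 chain that pairs with CD11c, changed by 1.19 ± 0.43 (SE, adjusted p = 0.134).

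Among 20 other genes of lipid-loaded and scar-associated macrophages, 2 rose and 1 fell in WT with TCDD, against 3.43% and 1.95% of all genes. Their median log2 change was 0.33, against -0.02 over all genes tested. Which liver cells the RNA of these 20 genes came from was not tested. Mmp12, the elastase of macrophages, was 0.573, 0.336 and 0.459 CPM in WT vehicle mice 1, 7 and 13 and 19.8, 6.26 and 18.6 CPM in WT TCDD mice 2, 8 and 14. Its log2 change was 5.01 ± 0.65 (SE, n = 3, adjusted p = 0.00025). In dHSC TCDD livers it was 8.56, 8.75 and 3.44 CPM, and the log2 change was 3.10 (adjusted p = 0.00888). In dHep TCDD livers it was 1.64, 2.01 and 1.77 CPM, lower than in WT TCDD livers by a log2 difference of -3.04 ± 0.58 (SE, adjusted p = 0.00871). The difference of the Mmp12 response between dHep and WT, -2.97, did not pass edgeR's test (adjusted p = 0.176), while DESeq2 called it.

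Atp6v0d2, a subunit of the proton pump of lysosomes, went the other way. It was 19.3 ± 10.0 CPM (SD, n = 3) in WT vehicle and 2.33 ± 0.645 CPM in WT TCDD livers, a log2 change of -3.04 (adjusted p = 0.00128). In dHep it was 19.0 ± 7.68 and 22.1 ± 7.97 CPM, and the response differed from that of WT by 3.26 ± 0.65 (SE, adjusted p = 0.0256). It is the one listed gene whose response difference passed edgeR's test, and with each of the 12 libraries left out in turn the call was lost in 8 cases. DESeq2 called it too, with Itgax, Mmp12, S100a9, Cxcr2 and Cd79b. In dHSC it fell by 2.21 on the log2 scale (adjusted p = 0.0190). Lgmn, a lysosomal protease, rose by 1.18 in WT, a call lost in 5 of 6 cases with 1 library left out.

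Of 12 tested monocyte genes, 5 rose with TCDD in WT and 3 in dHSC, against 3.43% and 1.71% of all genes, and 0 fell. F13a1, S100a4, Ms4a6c and Itgam were not tested, and Ly6c2 reached at most 2.07 CPM in any liver. In dHep none of the 12 was called by edgeR's test, and DESeq2 called 1, Ms4a7. Unadjusted p was under 0.05 for 2 of the 12, against 6.7% of all genes. Ms4a7, a membrane protein of macrophages that derive from monocytes, was 1.26, 0.448 and 0.804 CPM in WT vehicle mice 1, 7 and 13 and 12.2, 9.68 and 11.2 CPM in WT TCDD mice 2, 8 and 14. Its log2 change was 3.71 ± 0.48 (SE, n = 3, adjusted p = 0.000261) in WT, 2.69 (adjusted p = 0.00489) in dHSC and 1.86 (adjusted p = 0.282) in dHep. Chil3 rose by 3.38, Ms4a4c by 2.06 and Csf1r, the receptor for macrophage colony stimulating factor, by 1.46 in WT. With 1 library left out, these calls were lost in 2, 6 and 3 of 6 cases. Cx3cr1 rose by 2.77 in dHSC, where TCDD mice 6, 12 and 18 had 5.61, 6.92 and 31.8 CPM. Without mouse 18, a library that stands apart, the change was 1.53 (adjusted p = 0.294). Plac8 was lower in dHep than in WT TCDD livers by 1.06 (log2 difference -1.06, adjusted p = 0.0470), a call lost in 5 of 6 cases with 1 library left out.

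Resident Kupffer cell markers were read beside them. Of 8 tested, 1 was called higher in WT with TCDD (Marco, log2 change 2.0, adjusted p = 0.0474), where 3.43% of all genes were. That call was lost in 5 of 6 cases with 1 library left out. The median log2 change of the 8 was 0.20, against -0.02 over all genes tested. Clec4f, the defining marker, changed by 0.20 ± 0.41 (SE, n = 3, adjusted p = 0.926). The summed level of the 8 Kupffer markers ran from 166 to 516 CPM in WT vehicle and from 319 to 507 CPM in WT TCDD livers, with the groups overlapping. WT vehicle mouse 7 alone was at 166 CPM, with vehicle mice 1 and 13 at 417 and 516 CPM.

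Other cell types express some of the 10 genes, and markers of several cell types were also read. In WT, where 3.43% of all genes were called higher with TCDD, 7 of 8 tested neutrophil markers rose. The summed level of the neutrophil list went from 2.80 to 5.86 CPM with vehicle to 82.5 to 104 CPM with TCDD. In dHep the sums were 6.89 to 25.5 and 15 to 35.0 CPM, which overlap, and in dHSC 4.26 to 11.6 and 14.4 to 163 CPM. Of 7 tested cholangiocyte markers, Epcam and Prom1 rose in WT, calls lost in 5 and 1 of 6 cases with 1 library left out. In WT the cholangiocyte list summed to 23.5 to 35.8 CPM with vehicle and 72.2 to 94.6 CPM with TCDD. In dHep these sums were 25.7 to 137 and 43.0 to 68.2 CPM, and in dHSC 24.5 to 38.8 and 50.4 to 91.2 CPM. Of 8 tested dendritic markers, 2 (Ccr7 and Flt3) rose in WT and in dHSC. Of 7 tested B, T and NK cell markers, 2 did (Cd79a and Cd79b). In dHSC 1.71% of all genes were called higher. With 1 library left out, the Flt3 call was lost in 5 of 6 cases and that of Ccr7 in 3 of 6, in each genotype. The Cd79a call was lost in 1 of 6 cases in WT and 3 of 6 in dHSC, and that of Cd79b in 0 and 1. In dHSC, Cd79a changed by 2.48, and by 1.27 (adjusted p = 0.326) without TCDD mouse 18. Of the 6 tested stellate cell and myofibroblast markers, 2 were called higher in WT, the collagen genes Col1a1 and Col3a1. Their calls were lost in 3 and 4 of 6 cases with 1 library left out. Of the 6 changes, 4 were above 0. Acta2 was 31.6, 7.01 and 3.27 CPM in WT vehicle mice 1, 7 and 13. In WT TCDD mice 2, 8 and 14 it was 3.98, 4.39 and 9.26 CPM. Des was 180, 7.57 and 5.91 CPM in the same vehicle mice and 9.20, 17.1 and 9.38 CPM in the TCDD mice. Vehicle mouse 1 is the library with muscle RNA. That list summed to 95.7 to 382 CPM with vehicle, highest in mouse 1, and 225 to 389 CPM with TCDD. Hepatocyte markers summed to 85149 to 148606 CPM in WT vehicle and 45358 to 86520 CPM in WT TCDD livers. Among the markers of these lists, Ly6g had no count in dHSC vehicle livers, and Ms4a1, Lrat and Timp1 had none in any library. The part of these cell types in the levels of Spp1, Itgax, Lgals3 and the other members was not tested.

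**Figure D4:**
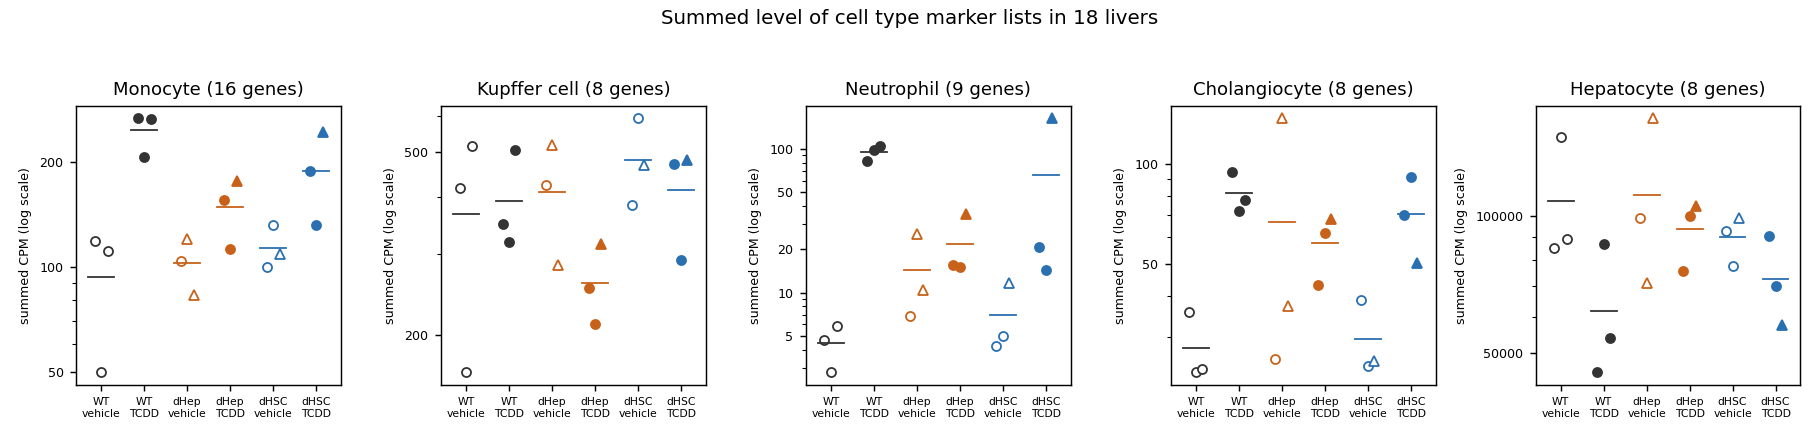
Summed levels of 5 lists of cell type markers in CPM, the scaled count (log axis), in each of 18 livers, by genotype and treatment, with lines at group means and triangles for the 5 libraries that stand apart. In WT the monocyte, neutrophil and cholangiocyte sums are higher in every TCDD liver than in every vehicle liver. The Kupffer cell sums overlap. Csf1r alone held 163 of the 266 CPM of the monocyte sum in WT TCDD mouse 2. In WT vehicle mouse 1 it held 69.9 of 119 CPM.

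The genes most like each member over the 18 livers were found by Pearson correlation of log2 CPM. Such correlations are descriptions, since all points share the TCDD contrast and the library depth. Gpnmb was most like Tnc (r = 0.98), Lgals3 like Adam8 (0.973) and Itgax like Cytip (0.965). Spp1 was most like Epcam (0.924), the epithelial marker of bile ducts, followed by Foxj1 and Mmp7. Lyz2 was most like Slc15a3, Clec4a3 and Itgb2, and with group means removed its r with Itgb2 was 0.962. Trem2 was most like Il1rn (0.897), Cd63 like Slc1a5 (0.956), Ccr2 like Tmprss4 (0.911), Cd9 like Crlf2 (0.874) and Fabp5 like Zfp969 (0.847).

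Among themselves the 10 genes did not move as a block. Over the 45 pairs the median r was 0.455, and the highest was 0.912, for Gpnmb with Itgax. With group means removed, so that only differences between mice of a group remained, the median was 0.161, and 28 of 45 pairs lay above 0. Lgals3 with Cd63 was the highest of those pairs, at 0.768, and Spp1 with Lyz2 the lowest, at -0.506.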

How the data were processed

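The deposited files hold raw read counts per gene, whole numbers without a header, 1 file for each of 18 libraries. Per the submitters' processing notes the tools include HISAT2 2.1.0 and HTSeq 0.11.3, with FastQC 0.11.9 and DESeq2 1.22.2 also named, and the build is GRCm38; counting settings are not given in the sources used here. Per the labels' protocols, mRNA came from 10 mg of liver by poly-T beads, with an RNA integrity number above 6.8. Symbols and positions are from GENCODE M21. Counts were fitted with edgeR 4.0.16 in R 4.3.3 (filterByExpr, TMM, a mean per group over all 18 libraries, quasi-likelihood F-tests, Benjamini-Hochberg adjustment over 14835 genes, calls at an adjusted p under 0.05) in 9 comparisons. CPM is computed after TMM scaling. The biological coefficient of variation was 0.448. On simulated data for TCDD against vehicle in WT, with 14835 genes, 54% of 100 genes changed 4-fold and 93% of 100 changed 16-fold were recovered, with 6 false calls. The labels do not describe separate litters or days, so p-values measure the spread between these mice. No 2 libraries of a group agreed within sampling noise.

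The 10 members, the gene lists and the tests were chosen with earlier results of these data known. All members are named, as are up to 4 called genes of each list with the largest change, ligands, receptors and signalling partners of members, and for each member the 3 genes with the highest correlation. Some genes that this rule or a list takes in are counted in list totals but not reported here by name. Other settings were RLE scaling, no count filter, at least 1 CPM in 3 libraries, only the groups of a comparison, DESeq2 1.42.0 and leaving out each library. Leaving out the 5 libraries with over 2% of counts outside protein-coding genes was chosen after seeing the data. Of 136 listed genes, 21 were not tested. Genes that overlap others may have lost reads in the counting, which was not tested. Protein sequences and a Fabp5 promoter were not used here.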

Additional observations from a re-analysis of the deposited data

Results flagged for a closer look

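Ccr2 stands out because its groups were ordered in opposite ways in 2 genotypes. Every WT TCDD liver was above every WT vehicle liver, as for 13.4% of all genes. Every dHep TCDD liver was below every dHep vehicle liver, as for 5.03%. The dHep gap was small, between 2.34 CPM (31 reads, vehicle mouse 15) and 2.13 CPM (34 reads, TCDD mouse 10). Vehicle mouse 9, a library that stands apart, was highest at 4.76 CPM. The dHep change, -0.66, ran from -0.83 to -0.24 as each of its 6 libraries was left out. The TCDD response in dHep less that in WT was -1.95 on the log2 scale. The interaction did not pass edgeR's quasi-likelihood test (adjusted p = 0.296), and the value ran from -2.47 to -1.53 as each of the 12 libraries was left out.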

How the results depend on the processing

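No paired analysis was possible because the groups share no mouse number. Members called changed as follows. TCDD in WT gave 4 to 7 with 1 library left out. TCDD in dHep gave 1 with DESeq2 and 0 to 1 with 1 library left out. TCDD in dHSC gave 1 with only the groups of the comparison and 1 to 3 with 1 library left out. The dHep response difference gave 1 with DESeq2. For dHep against WT with TCDD there were 0 with RLE scaling, 0 without a filter, 2 with DESeq2 (Trem2 and Ccr2), 2 without the 5 libraries that stand apart (Trem2 and Lgals3) and 0 to 1 with 1 library left out. Without those 5, an alternative added after seeing the data, dHSC kept Gpnmb and Lgals3 and lost Itgax (1.54, adjusted p = 0.131), and the dHep vehicle group is mouse 3 alone, assumed to vary like the other groups. None of the 5 is a WT library, so this is no check of the WT calls. Without WT TCDD mouse 8, the WT library nearest to them on the first principal component, the 5 WT calls were the same genes. Of 29 listed genes outside the members that were called in WT, 21 lost the call without at least 1 library, and in dHSC 11 of 13 did.

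Over all genes, calls with DESeq2 were 1343 in WT (798 with edgeR), 84 in dHep (10), 732 in dHSC (379), 288 for the dHep response difference (127), 3 for the dHSC response difference (0), 3 and 2 for dHep and dHSC with vehicle (0 and 0), and 570 and 22 for dHep and dHSC against WT with TCDD (288 and 0). In dHep there were 19 without a filter, and in dHep and dHSC 0 and 75 with only the groups of the comparison. Without the 5 libraries the counts were 1584 for WT, 0 for dHep, 214 for dHSC and 19 for the dHep response difference. With 1 library left out the ranges, in the same order, were 445 to 921, 0 to 11, 169 to 297 and 51 to 130, and 159 to 215 for dHep against WT with TCDD. The causes were not tested.

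Signs turned only in uncalled values. Without the 5 libraries these were Fabp5 (0.34) and Lyz2 (-0.35) in dHep, Lyz2 in dHSC (-0.042) and Cd9 in the dHep response difference (-0.36). With 1 library left out, the range crossed 0 for Trem2 (-0.73 to 0.10), Fabp5 (-0.31 to 0.60) and Cd63 (-0.14 to 0.74) in dHep. It did so for Trem2 (-0.086 to 0.67), Cd9 (-0.45 to 0.029) and Lyz2 (-0.010 to 0.35) in dHSC, and for Cd9 (-0.014 to 0.71) and Lyz2 (-0.31 to 0.45) in the dHep response difference. Depth limits Trem2, Ccr2, Itgax and, with vehicle, Gpnmb, which had 47 reads in the WT vehicle group.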
